A study of Mus musculus with 30 samples.

Results

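The genes described here are the V (variable) segments of the T cell receptor loci, taken as every gene whose symbol starts with Trav, Trbv, Trgv or Trdv followed by a number and whose counts summed to at least 10 over 30 libraries. Of 170 V segments in the tables, 106 met that minimum, out of 48709 genes in all. They comprised 76 of 128 alpha V segments (Trav), 25 of 35 beta V segments (Trbv), 4 of 6 delta V segments (Trdv) and the 1 gamma V segment that carries a Trgv symbol, Trgv2. The others had no count in any library (39 segments) or between 1 and 9 counts (25 segments). Trav23, with 14 counts, lay just inside the minimum and Trav15-3, with 9, just outside it.

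The libraries were made from total RNA of whole brain, kidney, liver, muscle and spleen pieces of adult C57BL/6 mice. Each tissue had 3 wild-type (WT) libraries and 3 libraries of mice lacking 1 functional copy of Ctcf (Ctcf+/-), which the labels call Ctcf haploinsufficiency. The series' design text gives 3 mice per genotype, so that tissues share mice, but no label used here says which libraries do. Ctcf, an architectural DNA-binding protein that anchors chromatin loops, was counted lower in every Ctcf+/- library than in every WT library of brain, kidney, liver and muscle. The ratio of the group means lay between 0.616 and 0.681 over the 5 tissues. In spleen it was 0.680, and the highest Ctcf+/- library (165 CPM, counts scaled to a common library size) overlapped the WT range of 155 to 222 CPM.

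A T cell assembles its receptor by cutting and joining DNA: V(D)J recombination places 1 of many V segments next to a J segment, with a D segment between them in the beta and delta chains, and the joined exon is spliced to the constant segment. Alpha and beta chains pair on most T cells of the spleen, and gamma and delta chains on a smaller population. The RNA of a V segment comes largely from T cells that chose it, and its share of the counts of its locus is called its usage. CTCF sites lie along these loci, and looping between distant V segments and the recombination centre is a known part of their biology.

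The 5 beta V segments whose summed share is compared between liver and spleen below (Trbv1, the 3 Trbv13 segments and Trbv29) are printed together with Trbv3 and Trbv16, which had the next highest levels in spleen after Trbv13-2 and lower shares in liver. Each line holds the last 60 coding bases on the plus strand of chromosome 6 (GRCm38, GENCODE M21 transcripts), 5′ to 3′, and the capitals mark the codon of the conserved cysteine at which the variable antigen-binding loop begins.
Trbv1: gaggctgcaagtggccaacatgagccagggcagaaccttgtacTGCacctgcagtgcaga
Trbv3: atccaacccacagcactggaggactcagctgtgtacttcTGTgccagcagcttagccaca
Trbv13-1: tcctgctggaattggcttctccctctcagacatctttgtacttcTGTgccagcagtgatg
Trbv13-2: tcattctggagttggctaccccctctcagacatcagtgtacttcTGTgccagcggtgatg
Trbv13-3: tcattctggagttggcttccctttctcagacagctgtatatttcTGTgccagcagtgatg
Trbv16: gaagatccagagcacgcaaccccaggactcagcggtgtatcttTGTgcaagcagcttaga
Trbv29: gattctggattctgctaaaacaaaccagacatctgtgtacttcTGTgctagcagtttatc
Over the last 300 coding bases, compared without gaps, Trbv13-2 was identical to Trbv13-1 at 88.7% of positions and to Trbv13-3 at 91.7%. The Trbv13-2 stretch lies at chr6:41121773-41121832.

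Fragments that align to several places were not counted, so sequence likeness limits what can be counted of a V segment. Of the 170 V segments, 40 had no stretch of 100 coding bases that was absent from every other V segment. All 40 were alpha segments, 0 of them met the count minimum, and 27 had no count in any library. The other 12 of the 39 segments with no count do have a unique stretch, as do 24 of the 64 segments under the count minimum. The beta locus had no such segment. Trav11 and Trav11d, whose product joined to Traj18 forms the invariant alpha chain of natural killer T (iNKT) cells, were identical at all 342 coding bases compared, and the tables hold 6 and 2 counts for them in all. The pseudogene copy Trav11n differs from Trav11 at 8 of 342 bases and had 37 counts. A stretch of 120 coding bases from each copy is printed to show this (chromosome 14, plus strand, GRCm38, GENCODE M21; Trav11 at chr14:53519739-53519858). Capitals mark the bases at which Trav11n differs from Trav11, which are T18C and A44G counted from 1 at the 5′ end of the printed stretch, with the base of Trav11 first.
Trav11: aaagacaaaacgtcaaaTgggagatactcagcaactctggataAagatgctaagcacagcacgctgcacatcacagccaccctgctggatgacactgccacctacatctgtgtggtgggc
Trav11d: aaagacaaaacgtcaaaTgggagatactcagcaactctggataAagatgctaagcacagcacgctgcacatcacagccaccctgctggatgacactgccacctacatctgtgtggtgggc
Trav11n: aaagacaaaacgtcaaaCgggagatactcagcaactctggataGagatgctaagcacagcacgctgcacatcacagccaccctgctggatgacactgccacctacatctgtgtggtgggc
Usage of the iNKT alpha chain therefore could not be read from these tables.

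Total counts per library ranged from 49819907 to 131645999, both in brain. The limit that a count of 0 allows (3 counts) was 0.0228 to 0.0602 CPM. In spleen, WT replicate 1 and Ctcf+/- replicate 2 stood apart from the other 4 libraries: over all genes their deviations from the spleen mean correlated at 0.75 with each other and at −0.08 or below with every other library. These libraries also had 145 and 746 CPM over 10 genes typical of liver, kidney, muscle and pancreas, where the other 4 had 29.2 to 99.4 CPM. Each spleen comparison between genotypes was therefore also made without them.

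In spleen, Trbv13-2, a V segment of the Vβ8 family, had the highest level of all. It was counted 1280, 1369 and 1916 times in the WT libraries and 1971, 1368 and 1772 times in the Ctcf+/- libraries. That is 14.7%, 15.2% and 15.7% of the beta V counts in WT and 15.3%, 13.8% and 15.4% in Ctcf+/-. It was the most counted beta V segment in all 6 libraries, and the genotypes overlapped. Trbv16 followed with 9.45% of the beta V counts of the 6 libraries pooled, Trbv3 with 8.44%, Trbv1 with 7.11% and Trbv13-1 with 5.89%. Together these 5 segments held 46.0% of the beta V counts. Per kilobase of exon, Trbv13-2 averaged 54.6 CPM, Trbv16 29.7, Trbv3 23.0, Trbv1 21.2 and Trbv13-1 20.1, so the order of these 5 was the same on the scale that allows comparison between genes.

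The 22 beta V segments annotated as functional all met the count minimum, against 3 of 13 annotated as pseudogenes (Trbv12-3, Trbv22 and Trbv24). Usage was uneven among the functional segments. Trbv4 averaged 0.220 CPM, Trbv5 0.109 CPM and Trbv21 0.0658 CPM, while 17 of the 25 were above 1 CPM; these low segments are named after their values were seen. Trbv4 and Trbv5 share exonic bases with the gene 5830405F06Rik, whose fragments the counting leaves out where both overlap. Trbv31, which lies in inverted orientation beyond the constant segments and rearranges by inversion, took 5.23%, 5.05% and 4.86% of the beta V counts in WT and 4.74%, 4.83% and 4.32% in Ctcf+/-, with every Ctcf+/- library below the WT libraries.

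**Figure D1:**
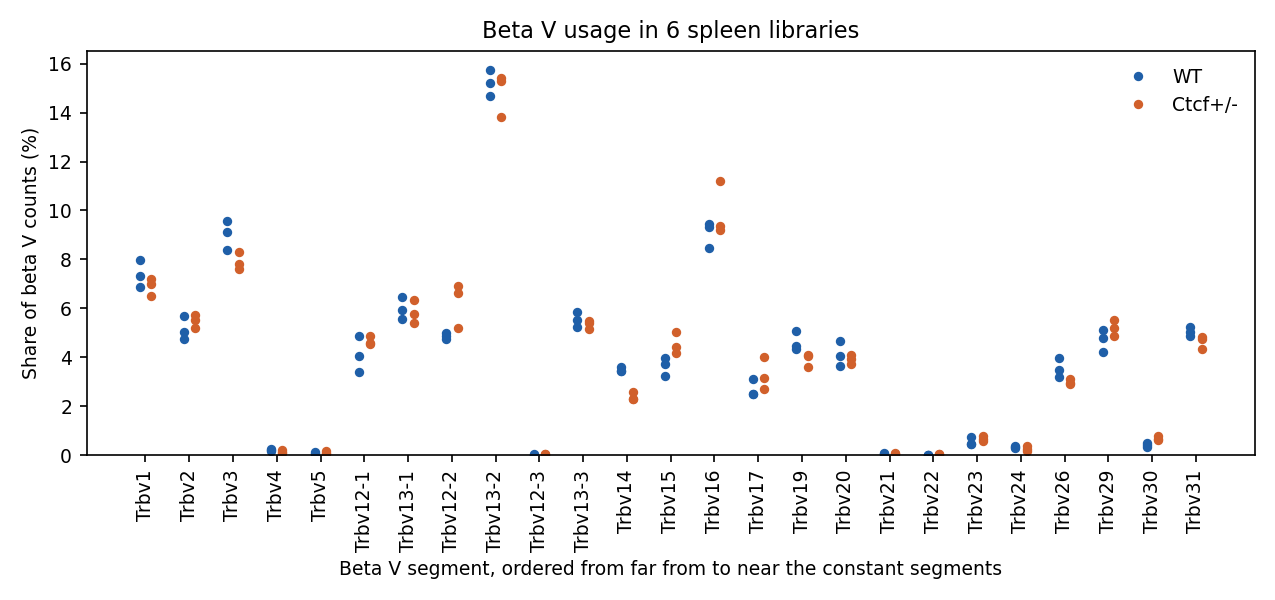
Share of the beta V counts (%, y axis) taken by each of 25 beta V segments in 3 WT (blue) and 3 Ctcf+/- (orange) spleen libraries, 1 point per library, ordered by distance from the constant segments. Trbv13-2 lies between 13.8% and 15.7% in every library, and for 8 of the 25 segments the points separate by genotype, with 3 higher and 5 lower in Ctcf+/-.

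Alpha usage was spread over more counted segments, 76 against 25 for beta. The highest mean levels were those of Trav3-3 (1.71 CPM over the 6 libraries), Trav14n-3 (1.70), Trav13-1 (1.67), Trav4-4-dv10 (1.49) and Trav14d-3-dv8 (1.48). The 5 held 18.3% of the alpha V counts, a share that the larger number of segments lowers beside that of beta. Trav3-3 was at 1.76, 1.61 and 1.52 CPM in WT and 2.06, 1.63 and 1.70 CPM in Ctcf+/-. The spread between libraries was as large as the steps between these 5 segments, so their order is not resolved. Per kilobase of exon Trav13-1 was at 5.05 CPM and Trav3-3 at 4.09, against 54.6 for Trbv13-2. Over all 76 alpha segments the mean level ran from 0.0239 to 1.71 CPM, with a median of 0.429. Trav1, the alpha V segment of mucosal-associated invariant T (MAIT) cells, was at 0.365, 0.433 and 0.362 CPM in WT and 0.610, 0.661 and 0.334 CPM in Ctcf+/-, and the genotypes overlapped.

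Mouse alpha V segments exist in copied blocks, and the symbol carries a d or an n for the copies. Of the spleen alpha V counts, 72.7% were assigned to the 55 segments without either letter, 11.8% to the 39 d copies and 15.5% to the 34 n copies. Of the 40 segments with no unique stretch, 20 were d copies, 18 were n copies and 2 had neither letter. The split between copies is therefore uncertain, since only fragments that align to 1 place were counted.

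The 128 alpha V segments were split by distance from the alpha constant segment into a nearest group of 43, a middle group of 43 and a farthest group of 42. The nearest group held 65.2% of the spleen counts of the 76 alpha V segments, the middle group 24.5% and the farthest 10.2%. Among segments that have a unique stretch, 90.5% of the nearest group met the count minimum, 83.3% of the middle group and 81.8% of the farthest. The median level of a counted segment was 0.695, 0.429 and 0.257 CPM in that order. Several of the very nearest segments were low, however. Trav23, 243 kb from Trac, averaged 0.0248 CPM, Trav22 0.0308, Trav20 0.0335 and Trav18 0.0412, although Trav21-dv12 (0.522) and Trav19 (0.555) lie among them. Trav22 and Trav20 are annotated as pseudogenes, and Trav23 and Trav18 are not. At the other end, Trav1, 1792 kb away, averaged 0.461 CPM and Trav2 0.140. Over the 76 segments the Spearman correlation of distance and level was −0.25, a description over segments that share libraries and differ in how many of their fragments are unique.

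**Figure D2:**
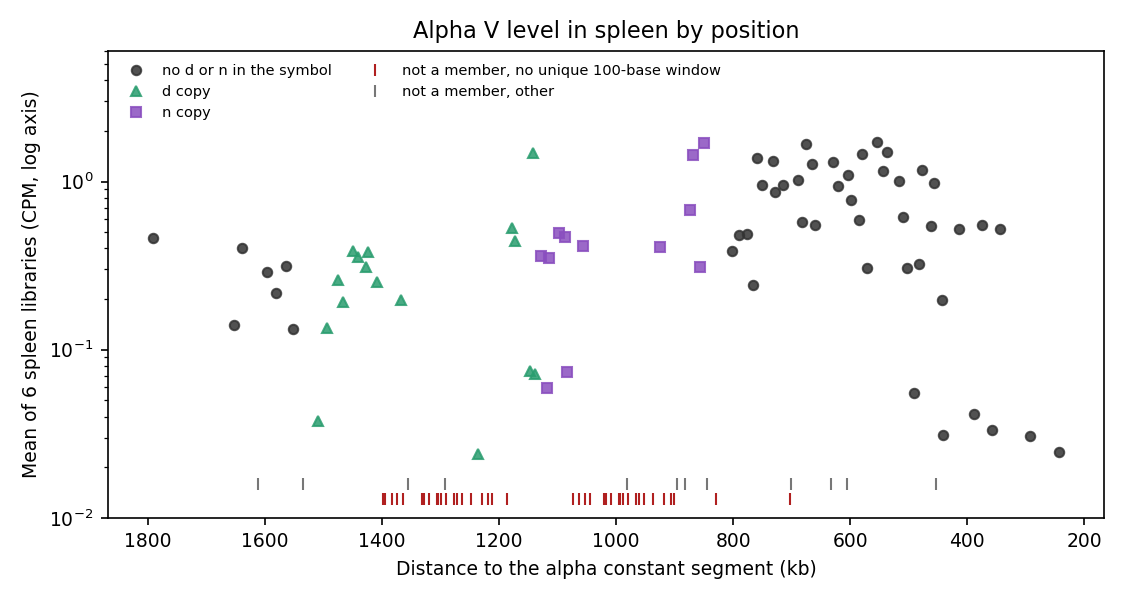
Mean level in 6 spleen libraries (CPM, log axis) of the 76 counted alpha V segments against distance to the alpha constant segment in kb, with d copies (triangles), n copies (squares) and other segments (circles). Ticks at the bottom mark segments under the count minimum, and the red ticks, which have no unique 100-base stretch, cluster in the copied blocks.

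In the beta locus, split in the same way into 12, 12 and 11 segments, the middle group, which contains the Trbv12 and Trbv13 segments, held 60.2% of the spleen beta V counts. The nearest group held 18.6% and the farthest 21.1%, the latter through Trbv1, Trbv2 and Trbv3.

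Summed over their members, the gamma and delta loci were low beside alpha and beta. Single segments were not: Trgv2 averaged 2.12 CPM in spleen, above the highest alpha mean of 1.71. Each counted delta segment was above the alpha median of 0.429 CPM. Trgv2 was at 1.59, 1.71 and 2.34 CPM in WT spleen and 2.66, 1.74 and 2.71 CPM in Ctcf+/- spleen. Of the delta segments, Trdv4 averaged 0.830 CPM, Trdv2-2 0.685, Trdv5 0.517 and Trdv1 0.497. Trdv5 lies in inverted orientation beyond the delta constant segment and shares exonic bases with Trdc, and Trdv2-2 shares some with Gm43647. The other gamma V segments have symbols that start with Tcrg-V and are outside the rule.

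The question between tissues is where T cell receptor RNA is found. Alpha V segments summed to between 27.8 and 33.5 CPM in the 6 spleen libraries and beta V segments to between 75.4 and 94.7 CPM, on a scale normalised over all 30 libraries. In kidney the beta sum was 0.352 to 0.991 CPM, in liver 0.549 to 1.57, in brain 0.0422 to 0.133 and in muscle 0 to 0.190. The spleen median was 159-fold that of kidney and 106-fold that of liver. No library of another tissue came near a spleen library. In tissue pieces, fewer T cells and less receptor RNA per T cell cannot be told apart.

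Of the 106 segments, 91 had enough counts to enter the test of spleen against the mean of the other 4 tissues (edgeR quasi-likelihood test, Benjamini-Hochberg adjusted over 24262 genes). All 91 were called higher in spleen, where 42.2% of all genes tested were. Nearly all segments reached the count minimum through their spleen counts, so this count follows from how they were chosen. DESeq2 called 85 of them, and the other 6, Trbv5, Trav2, Trav6-2, Trav6d-3, Trav7d-3 and Trav6n-5, had adjusted p between 0.0730 and 0.109. Of the 106, 27 had no count at all outside spleen and 99 had more than 95% of their counts there.

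Most counts of 3 alpha V segments lay outside spleen, namely those of Trav3-4, Trav12-4 and Trav9d-4. Trav3-4 was counted 21, 38 and 39 times in WT kidney and 14, 28 and 34 times in Ctcf+/- kidney. The 6 spleen libraries held 10 to 22 counts of it, and liver and muscle none. Its median was 0.266 CPM in kidney and 0.151 CPM in spleen, and kidney and spleen libraries overlapped. Against kidney alone, its log2 fold change in spleen was −0.80 (SE 0.38), which the edgeR test did not call (adjusted p = 0.0600). Trav12-4, a pseudogene next to it on the constant-segment side (chr14:53778603-53778873), had 1 to 7 counts in every kidney and every brain library and none in liver or muscle.

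Trav9d-4 had 1, 2, 3, 4, 6 and 7 counts among the 6 brain libraries and 13 counts over the spleen libraries. Brain libraries also held 1 to 6 counts each of Trav3-3, Trav9-4 and Trav4-4-dv10, which follow each other along chromosome 14. Few alpha segments were counted in brain: 7 to 9 of 76 had a count in a library, and 15 had a count in any of the 6.

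V counts were also set against the counts of the constant segment of the same locus, so that the amount of T cell RNA in a piece enters both. In spleen there were 22.5 to 35.3 beta V counts for every 100 constant counts (Trbc1 and Trbc2), with a median of 32.5. Kidney, with 17.5 to 38.4, and liver, with 18.7 to 32.7, overlapped spleen. Brain was at 0.648 to 2.60, below every spleen library. On the log2 scale brain was lower than spleen by a difference of −4.12 (2-sided exact permutation test, n = 6 and 6, p = 0.00217, the smallest possible, adjusted p = 0.00866 over 8 ratios). The brain constant counts were almost all of Trbc2, with 344 to 1018 counts per library against 1 to 6 for Trbc1. In spleen Trbc2 had 1.71 counts for each of Trbc1. Of the 60 beta V counts in brain, 31 were of Trbv12-2 and 16 of Trbv13-2.

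For the alpha chain it was liver that stood apart. Spleen had 21.5 to 36.2 alpha V counts for every 100 Trac counts, liver 2.33 to 5.17, and the libraries did not overlap. The log2 difference was −2.55 (2-sided exact permutation test, n = 6 and 6, p = 0.00217, adjusted p = 0.00866). The 370 Trac counts of the 6 liver libraries came with 16 alpha V counts, each on a different segment, whereas their 859 beta constant counts came with 240 beta V counts. Liver thus overlapped spleen in its beta ratio and lay below it in its alpha ratio. The part of V segments that cannot be counted, Trav11 among them, was not tested.

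For kidney and brain the alpha ratio overlapped spleen (exact permutation test, n = 6 and 6, adjusted p = 0.609 for both). The 3 segments named above held 59.2% of the alpha V counts in kidney, 44.0% in brain and 0.581% in spleen. Without them there were 5.48 to 15.6 alpha V counts for every 100 Trac counts in kidney, 8.70 to 23.1 in brain and 21.4 to 36.0 in spleen, so that brain still overlapped spleen and kidney did not. The 3 were chosen because most of their counts lie outside spleen, and leaving them out can only lower kidney and brain, so no test is given. Muscle had 6 alpha and 18 beta V counts over 6 libraries. Of the beta counts 11 lay in Ctcf+/- replicate 3, which also had 81 Trbc1 counts where the other 5 muscle libraries had 1 to 7. Muscle had a beta log2 ratio 1.32 lower than spleen (difference −1.32, exact permutation test, n = 6 and 6, adjusted p = 0.0115). Its alpha ratio was not called (adjusted p = 0.0823, exact permutation test, n = 6 and 6). These log2 ratios add 0.5 to the V and to the constant counts, which shifts libraries with so few counts. Pooled without it, muscle had 7.93 beta V counts for every 100 constant counts, against 29.7 in spleen. With it, the beta ratios of muscle and spleen libraries overlapped.

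**Figure D3:**
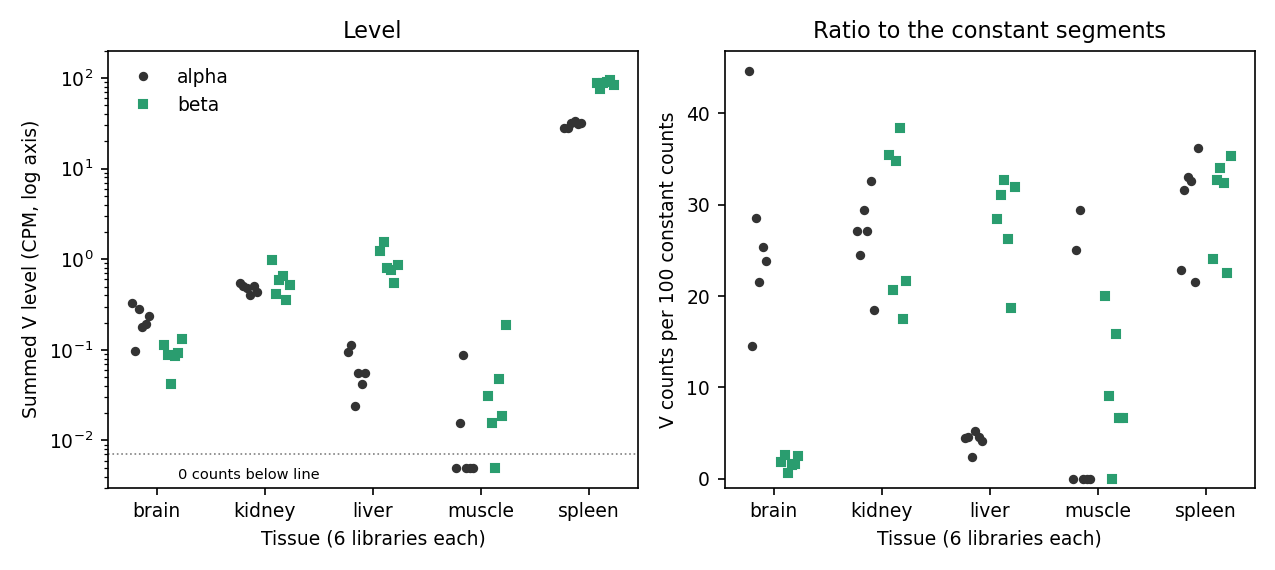
Left, summed alpha (circles) and beta (squares) V level per library in CPM on a log axis, with libraries at 0 counts drawn below the dotted line. Right, V counts for every 100 constant segment counts; brain lies at 0.648 to 2.60 for beta and liver at 2.33 to 5.17 for alpha.

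The shares of single beta V segments in liver and spleen are given as values, without a test. Trbv13-2 took 24.6% of 240 liver beta V counts against 15.1% in spleen, Trbv13-1 15% against 5.89%, and Trbv29 12.5% against 4.99%. Trbv3 took 1.67% against 8.44% and Trbv16 2.08% against 9.45%. Trbv26 had no count in liver, where 3 of 240 counts is the most that a count of 0 allows, and 3.27% in spleen. Trbv26, and which shares are named here, were chosen after the values were seen. As background, iNKT cells of the mouse, which are frequent in liver, pair their invariant alpha chain mainly with beta chains of the Vβ8, Vβ7 and Vβ2 families, encoded by the Trbv13 segments, Trbv29 and Trbv1.

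Those 5 segments (Trbv1, Trbv13-1, Trbv13-2, Trbv13-3 and Trbv29) together took 75.0%, 58.9% and 73.5% of the beta V counts in WT liver and 75.6%, 50% and 71.0% in Ctcf+/- liver. In spleen they took 38.9%, 38.0% and 39.6% in WT and 38.2%, 38.0% and 38.1% in Ctcf+/-. Every liver library was above every spleen library, by 28.9 percentage points on average. In kidney the share was 41.7%, 74.5% and 43.8% in WT and 47.4%, 50% and 55.4% in Ctcf+/-, again above every spleen library. The set was put together after the shares of these libraries had been seen, so no test is given. A liver library held only 26 to 56 beta V counts and a kidney library 38 to 120, against 8714 to 12886 in spleen. Without Trbv13-2 and Trbv12-2, both counted in brain and muscle too, the mean difference from spleen was 8.16 points in kidney and 33.1 points in liver. Without the WT kidney library at 74.5% the kidney difference was 9.19 points.

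Over the 25 beta segments, the pooled shares of spleen and liver correlated at a Pearson's r of 0.75 and those of spleen and kidney at 0.91, a description in which each point shares its libraries with all others.

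**Figure D4:**
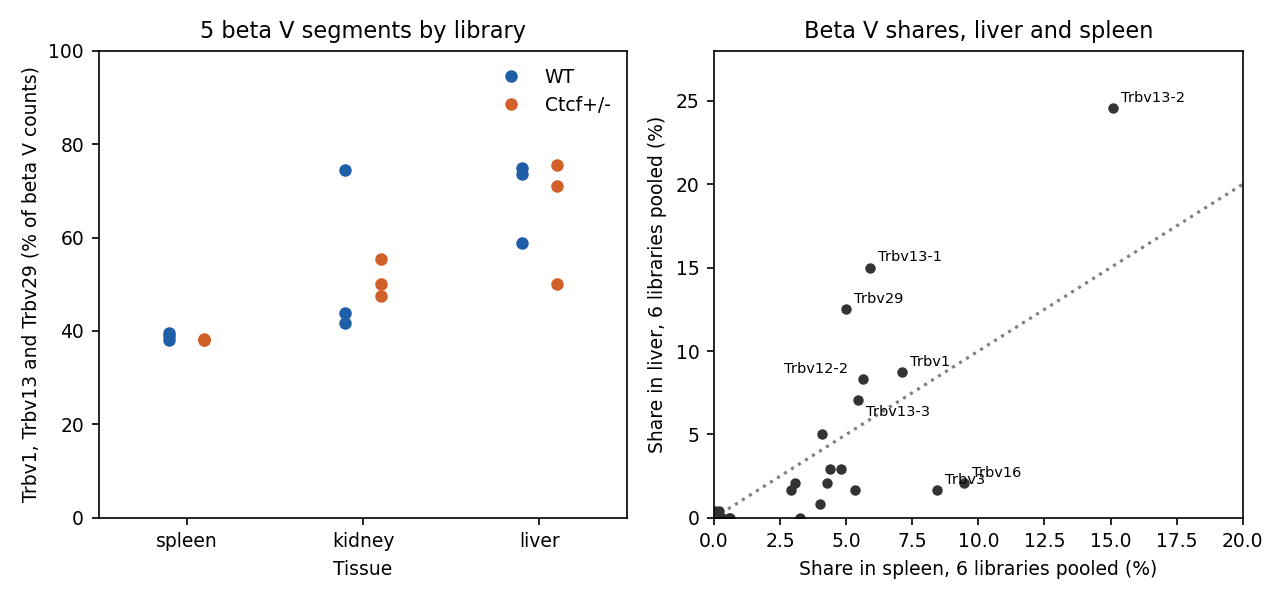
Left, share of Trbv1, the 3 Trbv13 segments and Trbv29 among beta V counts (%), 1 point per library, with WT in blue and Ctcf+/- in orange; the liver points lie at 50% to 75.6% and the spleen points at 38.0% to 39.6%. Right, share of each beta V segment in liver against spleen, 6 libraries pooled each, with the line of equality dotted.

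Loss of a Ctcf allele was compared within each tissue. In spleen 91 of the V segments were tested and none was called by edgeR (smallest adjusted p = 0.796), where 0.242% of all 18615 genes tested were called. DESeq2 called none either (smallest adjusted p = 0.407). At an unadjusted p under 0.05 there were 3 of the 91 in edgeR, namely Trav16d-dv11, Trbv30 and Trbv12-2. Among all 18615 genes tested there were 656. In DESeq2 there were 6 of the 91, and 730 among all 18606 genes tested. In kidney 2 segments were tested and none was called, with 0.0211% of all genes called. In brain, liver and muscle no segment had enough counts to be tested, and 0.0157%, 0.0193% and 0.0249% of all genes were called there.

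In spleen, 66 of the 91 segments had a positive log2 fold change (Ctcf+/- over WT) and 25 a negative one, with a median of 0.18 where the median of all genes was 0.00. Without the libraries that stood apart, 0 of 90 were called (smallest edgeR adjusted p = 0.729), 63 were positive and the median was 0.16, where that of all genes was −0.02. In that fit 0 of 19045 genes were called at all. Segments of a locus share T cells and are not replicates. By locus, 47 of 64 alpha, 15 of 22 beta and 3 of 4 delta segments were positive, with medians of 0.18, 0.07 and 0.21, and the gamma segment Trgv2 was at 0.33. The 3 Ctcf+/- libraries were all above the 3 WT libraries for 12 of the 91 segments, and for 810 of all 18615 genes tested (4.35%). They were all below for 3 of the 91 segments, and for 426 of all genes tested (2.29%).

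Trav16d-dv11 had the smallest p. It was at 0.306, 0.264 and 0.322 CPM in WT spleen and 0.590, 0.661 and 0.533 CPM in Ctcf+/- spleen. Between the groups, which did not overlap, this is a log2 fold change of 0.99 with a standard error (SE) of 0.29, and edgeR gave an adjusted p of 0.796. These levels rest on 21 to 59 counts per library.

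Trbv30, the beta V segment nearest to the constant segments on the same side as the rest of the array, was at 0.423, 0.457 and 0.624 CPM in WT and 0.990, 0.923 and 0.763 CPM in Ctcf+/-. Again the groups did not overlap (log2 fold change 0.83, SE 0.29). Trbv12-2 was at 6.17, 5.41 and 5.83 CPM in WT and 8.52, 7.11 and 8.32 CPM in Ctcf+/- (0.46, SE 0.17). For both, the edgeR adjusted p was 1.

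As shares of the beta V counts, which do not depend on the amount of T cell RNA, Trbv12-2 was at 4.85%, 4.99% and 4.76% in WT and 6.61%, 5.22% and 6.92% in Ctcf+/-. Trbv14, the V segment between Trbv13-3 and Trbv15, was at 3.60%, 3.45% and 3.43% in WT and 2.58%, 2.29% and 2.28% in Ctcf+/-. Trbv15, next to it, was at 3.98%, 3.74% and 3.25% in WT and 4.18%, 5.04% and 4.42% in Ctcf+/-. For none of these 3 segments did the genotypes overlap in share. In all, the share of 3 of the 25 beta segments was higher in every Ctcf+/- library than in every WT library (Trbv12-2, Trbv15 and Trbv30) and that of 5 was lower (Trbv3, Trbv14, Trbv19, Trbv26 and Trbv31). Of the 76 alpha segments, 3 were higher and 5 lower in this way. Shares within a locus have no counterpart over all genes to read these counts against, but the design gives a rate. In an exact permutation of 3 against 3 libraries, labels alone separate a segment fully, in either direction, at a rate of 0.1. The alpha counts, 3 and 5 of 76, lay near that rate, and the beta counts, 3 and 5 of 25, lay above it. A segment that takes a larger share lowers the others, so segments are not independent, and neither count was tested. Trbv14 and Trbv15 are named after their values were seen, so their shares get no test, and the edgeR test called neither level.

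Among the alpha segments, Trav7-5 was at 2.84%, 3.05% and 2.78% of the alpha V counts in WT and 1.77%, 1.87% and 1.77% in Ctcf+/-. It is likewise named after its values were seen, and its edgeR log2 fold change was −0.53 (SE 0.23), not called. Over all segments, the pooled shares of WT and Ctcf+/- spleens correlated at a Pearson's r of 0.99 over 25 beta and 0.97 over 76 alpha segments. Between single spleen libraries, 6 over both genotypes, V counts varied more than counting error in both loci. The chi-square per degree of freedom was 5.61 for beta and 2.19 for alpha. It grows with the number of counts, 64184 for beta and 22901 for alpha, so it does not rank the loci by how much usage varied.

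**Figure D5:**
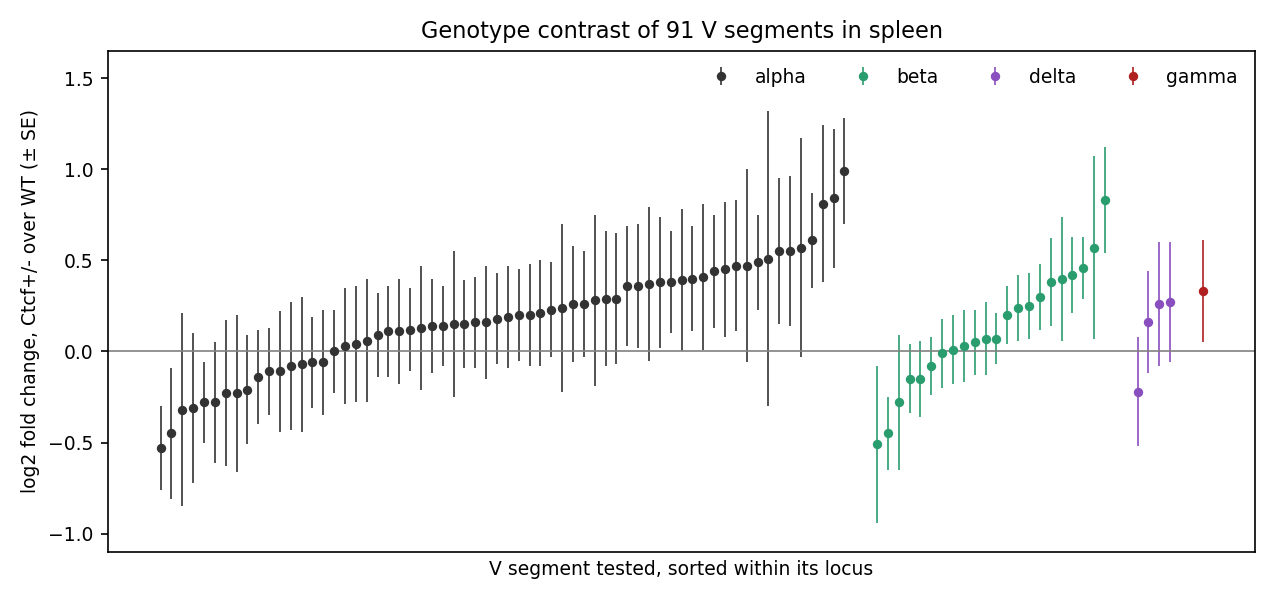
log2 fold change of Ctcf+/- over WT in spleen for each of 91 V segments tested, sorted within its locus, with bars of ±1 standard error from the edgeR fit. None was called at an adjusted p under 0.05, and 66 of the 91 points lie above 0.

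Summed over the locus, the alpha V level was 40.6, 39.9 and 44.2 CPM in WT spleen and 48.0, 44.8 and 45.5 CPM in Ctcf+/- spleen. All 3 Ctcf+/- libraries were above all 3 WT libraries, by a log2 difference of 0.15 (also 0.15 without the libraries that stood apart), at the smallest p of this design (exact permutation p = 0.10, adjusted 0.467 over 14 values). The beta sum was 119 ± 9.78 CPM in WT and 128 ± 8.06 CPM in Ctcf+/- (SD, n = 3 each), and the groups overlapped (exact permutation, adjusted p = 0.622). The gamma segment at 1.88 ± 0.406 and 2.37 ± 0.547 CPM and the delta sum at 2.41 ± 0.297 and 2.65 ± 0.290 CPM overlapped as well (SD, n = 3 each; exact permutation, adjusted p = 0.622 for both).

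Set against the constant segments, no difference was called in any locus. For gamma, Trgv2 alone is set against all gamma constant segments, since the V segments named Tcrg-V are outside the rule. There were 22.8, 31.6 and 33.0 alpha V counts for every 100 Trac counts in WT spleen and 32.6, 21.5 and 36.2 in Ctcf+/- spleen. For beta the values were 24.1, 32.7 and 34.0 in WT and 32.3, 22.5 and 35.3 in Ctcf+/-. In both loci the libraries that stood apart, WT replicate 1 and Ctcf+/- replicate 2, were the lowest of their group. The log2 differences were 0.03 for alpha, −0.02 for beta, −0.0045 for gamma and −0.05 for delta (exact permutation, adjusted p = 0.969 for alpha, beta and delta and 1 for gamma). The SD of a group was 0.27 to 0.48 on the log2 scale, larger than any of these differences.

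CTCF-anchored loops bring distant V segments near the recombination centre, so usage by distance is the question that a Ctcf heterozygote raises for these loci. For beta, the middle group held 59.6%, 59.3% and 59.1% of the V counts in WT spleen and 61.6%, 60.3% and 61.1% in Ctcf+/- spleen. The farthest group held 21.4%, 22.0% and 22.2% in WT and 19.5%, 21.2% and 21.0% in Ctcf+/-. Both separated the genotypes, by 1.69 and −1.32 percentage points, each at the smallest p the design allows (exact permutation p = 0.10, adjusted 0.467). Without the libraries that stood apart the differences were 2.16 and −1.88 points. The nearest group held 18.8% ± 0.195 in WT and 18.5% ± 0.506 in Ctcf+/- (SD, n = 3 each), and the groups overlapped (exact permutation, adjusted p = 0.622). With 2 equal groups in place of 3, the nearest group was slightly higher in Ctcf+/- and the farthest, which holds the rest, slightly lower. Segments of the middle group moved both ways. Of the pooled counts, Trbv12-2 took 4.9% in WT and 6.3% in Ctcf+/-, and Trbv14 took 3.5% and 2.4%. Of the farthest segments Trbv3, named here after its shares were seen, had 8.40%, 9.11% and 9.56% in WT and 7.61%, 8.29% and 7.82% in Ctcf+/-, without overlap.

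For alpha, the nearest group held 66.0% ± 1.81 in WT and 64.7% ± 1.14 in Ctcf+/- (SD, n = 3 each), a difference of −1.31 points that was 0.0094 without the libraries that stood apart. The farthest group held 9.99% ± 0.839 in WT and 10.5% ± 1.31 in Ctcf+/- (SD, n = 3 each), a difference of 0.49 points that was −0.63 without those libraries. Groups overlapped in both (exact permutation, adjusted p = 0.622 and 0.840). Counts assigned to copies limit this comparison, since segments without a unique stretch lie mostly in the middle and farthest groups.

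Other T cell genes were read beside the V segments from lists that were chosen with earlier results of these data known. None of the 8 receptor constant segments, 14 genes of the CD3 complex and T cell signalling or 15 T cell identity genes was called between genotypes in spleen. Their median log2 fold changes were 0.22, 0.16 and 0.22, near the 0.18 of the V segments, with 8 of 8, 14 of 14 and 14 of 15 positive. Leaving out 1 library moved these medians to 0.04 to 0.37, 0.04 to 0.31 and 0.17 to 0.26. The constant segments summed highest in the libraries that stood apart, at 748 CPM in WT replicate 1 and 859 CPM in Ctcf+/- replicate 2. The other spleen libraries were at 484 to 588 CPM. The T cell identity genes summed to 1922 to 2200 CPM in WT and 2282 to 2362 CPM in Ctcf+/-, without overlap. The 10 innate-like T and NK genes had a median of 0.20 and the 6 tested genes of V(D)J recombination and thymocytes one of 0.12, with none called in either.

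Markers of other cells were read in the same libraries, and of the B cell, erythroid, neutrophil and macrophage genes none was called. The 10 B cell genes had a median of −0.15 with 0 of 10 positive, summing to 5074 to 6480 CPM in WT and 4656 to 5487 in Ctcf+/-. The 6 erythroid genes had a median of −0.42 and ranged from 13160 to 81800 CPM over the WT libraries alone. The 6 neutrophil genes had a median of 1.05, at 604 to 3285 CPM in WT and 2252 to 5173 in Ctcf+/-, and that median was 2.48 without the libraries that stood apart. The 6 macrophage genes had a median of −0.21, at 1049 to 1272 CPM in WT and 534 to 1329 in Ctcf+/-. Of the 9 tested genes typical of other organs 5 were called: Kap and Umod of kidney were higher in Ctcf+/- spleen, and Alb, Ahsg and Apoa2 of liver were lower. The median of the 9 was 1.75, and −2.08 without the libraries that stood apart. No gene of these lists was at 0 in all spleen libraries. The part of cell composition in the V segment values was not tested.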

How the data were processed

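Per the file headers, the authors counted fragments per gene with featureCounts 1.5.0-p3 against the Ensembl release 86 annotation of GRCm38, and deposited 5 tables of raw counts, 1 per tissue. The submitters' processing notes name STAR, FastQC and DESeq2, without versions. The commands in the headers set no option for strand, multi-mapping or overlapping genes, so by the default of that tool counting ignored strand and left out fragments that map to several places or overlap several genes. Symbols, distances and coordinates follow the annotation, and coding sequences are those of GENCODE M21, of which 123 of 170 V segments had the same exons as the tables.

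Counts as deposited were tested with edgeR 4.0.16 (R 4.3.3), using TMM normalisation, its default filter on low counts, quasi-likelihood F-tests and Benjamini-Hochberg adjustment over all genes tested, with calls at an adjusted p under 0.05. The script was tested on simulated data. DESeq2 1.42.0, other scalings and filters, a replicate block and leaving out libraries were alternatives. Ratios and shares were compared by 2-sided exact permutation tests, and 3 against 3 libraries cannot go below p = 0.1. Log2 ratios compared between tissues had 0.5 added to the V and to the constant counts. CPM in spleen uses the spleen libraries' own TMM factors. Intervals were not computed, and the count limits cover counting error only.

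Same-numbered libraries of both genotypes deviated together in brain (r = 0.207 to 0.537) and kidney (r = 0.190 to 0.212). This did not hold in every pair of liver, muscle or spleen, and in spleen r was −0.472, −0.227 and 0.475. The main fits did not use the number in any tissue, and a block on it was an alternative. The V segments and gene lists were chosen with earlier results of these data known. Segments named are the 5 highest per locus in spleen, the 3 highest in any other tissue, the 3 smallest genotype p, the ends of each array, Trbv31, Trdv5, Trav11, Trav11d and Trav1. Any other segment named was chosen after its values were seen.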

Additional observations from a re-analysis of the deposited data

How the results depend on the processing

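Between 85 and 106 V segments were called higher in spleen under the alternatives, and 0 between genotypes in the 14 alternatives in spleen. The first range mostly follows the number tested: 106 of 106 with the 1-count filter, 85 of 85 with WT libraries only and 85 of 91 with DESeq2. Of all genes tested, 12036 of 36526, 8725 of 22933 and 9895 of 24233 were called higher there. Most segments met the count minimum through spleen, so this range is no evidence of stability. Of the 66 genotype alternatives over the 5 tissues, 29 tested no V segment, all of them in brain, liver or muscle, and these say nothing on stability. With the replicate block, 0 V segments were called in spleen, where 0 of all genes were called against 45 without it. DESeq2 called 187 genes there, leaving out 1 library gave 0 to 29, and a fit over all 30 libraries 250. The cause of the changes below was not tested.

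The spleen V to constant ratios lie near 0 and changed sign. Leaving out 1 library gave log2 differences of −0.1345 to 0.2576 for alpha, −0.1757 to 0.1758 for beta, −0.2789 to 0.2559 for gamma and −0.2053 to 0.1354 for delta. Against CD3 genes the values were 0.002198 for beta, 0.2189 for gamma and 0.03594 for delta, and with only segments free of overlaps and copies 0.06338 for delta. Without WT replicate 1 and Ctcf+/- replicate 2, beta was at 0.0197, the nearest alpha group at 0.009358 and the farthest alpha group at −0.6279 percentage points. Leaving out 1 library gave −2.323 to −0.5837 points for the nearest alpha group and −0.2286 to 1.06 for the farthest. With 2 equal groups in place of 3, the nearest beta group was at 0.09187 points, and the farthest, which holds the rest, fell by the same amount.

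Between tissues, leaving out 1 library gave alpha log2 ratios of −2.726 to −1.887 in muscle and beta ratios of −0.1665 to 0.02545 in liver. With WT libraries only, where p cannot go below 0.1, alpha was at −2.691 in liver and −1.023 in muscle, and beta at −4.244 in brain, −1.162 in muscle and 0.04735 in liver. Without Trav3-4, Trav12-4 and Trav9d-4, alpha was at −0.9781 in brain and −1.486 in kidney. The low counts of liver, brain and muscle limit every value there.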
